A study of Drosophila melanogaster with 2 samples.

Results

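Both arms of 53 fruitfly miRNAs could be compared within the small RNA of adult Drosophila melanogaster. The members were chosen by their names and their reads. A miRNA was taken when a 5p and a 3p sequence were listed under the same base name and when both arms together held at least 20 reads. Of 206 miRNAs with both arms listed, 81 had any reads and 53 passed this limit. The 53 held 112377 of the 139339 listed reads (80.7%). The reads came from 1 library of total RNA, isolated from individual adults, with no tissue named. No treatment is stated, and the sources used here give neither sex nor strain nor the number of flies. The mRNA library of the series was used for transcript positions alone. There are no replicates, so intervals given below are exact (Clopper-Pearson) two-sided 95% intervals of a share of reads. They cover counting error only, not bias between the arms from adaptor ligation or RNA length, and no p-value is given. A share is an average over the tissues that gave the RNA, in which fewer cells of a type and less RNA per cell cannot be told apart.

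A miRNA is cut from a hairpin. Drosha releases the pre-miRNA from the primary transcript, and Dicer then removes the loop and leaves a duplex of the 5p arm, from the upstream side of the stem, and the 3p arm, from the downstream side. As a rule 1 strand of the duplex is kept in an Argonaute protein as the guide, while the other, called the passenger or star strand, is lost. In insects, a uridine at the first position and a weakly paired 5′ end are known to favour a strand as the guide. Since each arm has its own seed, the arm that is kept decides which mRNAs can be targeted.

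The hairpins of abundant miRNAs led by each arm show which side of the stem the reads came from. They are the pre-miRNA substrates that the study designed for its Dicer assays, joined here from the primer pairs in its tables. They are written as DNA, 5′ to 3′, and capitals mark the 22 bases at the end of the hairpin that holds the leading arm. The first base is always G. Where the natural base differed, it and a base near the 3′ end had been changed by design, and the exact ends of the mature arms were not used here. miR-276a and miR-1 were led by the 3p arm, as was miR-277, which is shown because it is a neighbour of miR-34 in the genome. miR-34, miR-9a and miR-33 were led by the 5p arm. Of the more abundant miRNAs, miR-8, miR-14, miR-317, miR-7 and miR-279 are not printed, and no hairpin could be joined for bantam or miR-276b. All loci of the printed hairpins are on the plus strand. In coordinates equal to those of RefSeq Release 6, the miR-276a precursor lies on chromosome arm 3L from 10365228 to 10365325 and that of miR-1 on 2L from 20487441 to 20487531. On 3R, miR-277 spans 10100022 to 10100121 and miR-34 spans 10100936 to 10101034. On 3L, miR-9a spans 19565131 to 19565208 and miR-33 spans 19797961 to 19798059.
miR-276a: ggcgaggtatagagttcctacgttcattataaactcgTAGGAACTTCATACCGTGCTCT
miR-1: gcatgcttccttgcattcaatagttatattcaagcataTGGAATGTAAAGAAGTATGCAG
miR-277: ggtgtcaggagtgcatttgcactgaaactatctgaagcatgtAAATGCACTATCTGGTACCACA
miR-34: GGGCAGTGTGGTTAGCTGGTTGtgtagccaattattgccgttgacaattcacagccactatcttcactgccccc
miR-9a: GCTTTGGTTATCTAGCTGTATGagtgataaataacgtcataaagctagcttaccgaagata
miR-33: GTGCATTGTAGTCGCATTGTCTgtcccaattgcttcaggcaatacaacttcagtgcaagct

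The 3 miRNAs with balanced arms are shown without capitals. miR-275 follows as the genomic neighbour of miR-305, with capitals on its leading 3p side. On 2L, miR-275 spans 7425795 to 7425892, miR-305 spans 7425972 to 7426044 and miR-959 spans 5640940 to 5641037. On 3L, miR-314 spans 11773012 to 11773101.
miR-305: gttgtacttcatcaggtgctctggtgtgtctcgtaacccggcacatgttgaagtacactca
miR-959: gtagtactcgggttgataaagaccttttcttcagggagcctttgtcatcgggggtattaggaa
miR-314: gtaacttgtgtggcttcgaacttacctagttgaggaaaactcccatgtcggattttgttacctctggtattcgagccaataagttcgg
miR-275: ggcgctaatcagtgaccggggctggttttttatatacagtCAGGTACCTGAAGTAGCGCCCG

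Most of the miRNAs with reads on either arm lay on the plus strand. Of the 202 miRNAs with both arms and a single locus of their name, 108 lie on the plus and 94 on the minus strand. Of the former 74 had reads and 51 passed the limit, whereas of the latter 6 had reads and 2 passed. No miRNA of the minus strand had more than 43 reads over both arms. Whether reads of the minus strand were left out when the table was made is not stated, so a minus-strand miRNA without reads cannot be taken as absent from the adult. The arms of a miRNA lie on the same strand, but the choice of the 53 members rests on plus-strand loci.

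By number of miRNAs, neither side prevailed. The 5p arm led in 28 of the 53 miRNAs (52.8%) and the 3p arm in 25 (47.2%). Over all 81 miRNAs with any reads, the 5p arm led in 49.4% and the 3p arm in 45.7%, and in the remaining 4 the arms had equal reads. In 50 of the 53 the interval of the 5p share did not reach 50%, so the leading side was settled beyond counting error.

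By number of reads, the 3p side prevailed. Of the reads of the 53 miRNAs, 90386 lay on 3p arms and 21991 on 5p arms, which put 80.4% on the 3p side (interval 80.2 to 80.7%). With each miRNA counted once, the mean share of the 3p arm was 48.4%. The excess of 3p reads rested on few miRNAs. All 6 miRNAs with the most reads were led by the 3p arm and held 70.5% of the reads, whereas among the other 47 the 5p arm led in 28 and the 3p arm in 19. The split after 6 was not planned and falls where the leading side first changes, since miR-34 follows. Of the 10 miRNAs with the most reads, 7 were led by the 3p arm and 3 by the 5p arm. Without the 5 most abundant miRNAs, 49.3% of the reads were on the 3p side. Without miR-276a alone it was 74.0%.

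**Figure D1:**
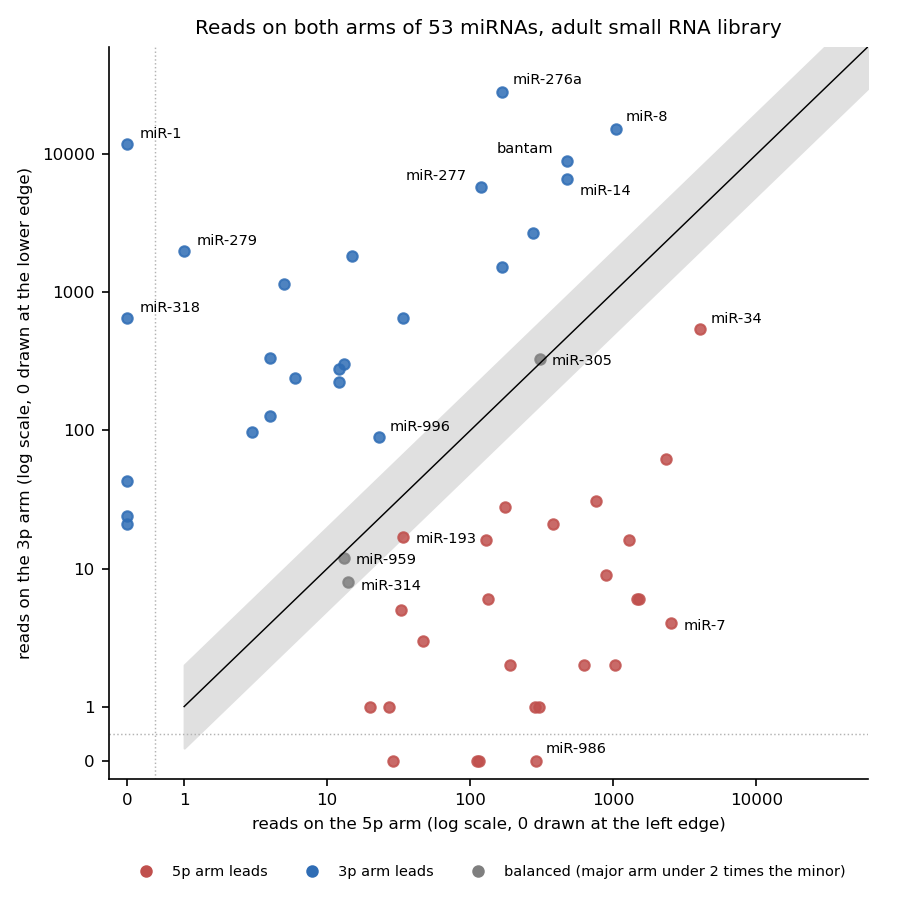
Reads on the 3p arm against reads on the 5p arm for each of the 53 miRNAs, both on a log scale with 0 drawn at the edge; the line marks equal reads and the grey band a difference of up to 2-fold. Most miRNAs lie far from the line, and miR-305, miR-959 and miR-314 lie inside the band.

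miR-276a, a miRNA of olfactory memory in neurons, had 28350 reads on its 3p arm and 166 on its 5p arm. This is 0.582% on the 5p arm (interval 0.497 to 0.677%) and a ratio of 171. The same 5p count is listed for its paralogue miR-276b, as described below. miR-8, the fly member of the miR-200 family, had 15294 reads on the 3p arm and 1038 on the 5p arm (6.36%, interval 5.99 to 6.74%). miR-276a and miR-8 were led by the same side, but the minor arm of miR-8 took a larger share.

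miR-1, known from muscle in animals from flies to mammals, had 11839 reads on the 3p arm and none on the 5p arm. A count of 0 allows up to 3 reads, or a 5p share of 0.0253%, and against 3 reads its 3p arm was at least 3946-fold higher. The upper bound of the two-sided interval of the 5p share was slightly higher, at 0.0312%. miR-1 was the only 1 of the 18 miRNAs with 1000 reads or more whose minor arm had no reads. The other muscle miRNA, miR-133, had 1160 reads on the 3p arm and 5 on the 5p arm (0.429%, interval 0.139 to 0.999%).

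bantam, which promotes tissue growth and blocks apoptosis, had 8956 reads on the 3p arm and 478 on the 5p arm (5.07%, interval 4.63 to 5.53%). miR-14, a regulator of cell death and fat metabolism, had 6678 and 477 reads, with 6.67% on the 5p arm (interval 6.10 to 7.27%). The share of the minor arm was thus of similar size in bantam, miR-14 and miR-8, between 5.07% and 6.67%, and the interval of bantam lay below those of miR-8 and miR-14. miR-277, which acts on the breakdown of branched-chain amino acids, had 5852 and 119 reads, with 1.99% on the 5p arm (interval 1.65 to 2.38%).

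Among the miRNAs led by the 5p arm, miR-34, a miRNA of ageing and of neuronal maintenance, had the most reads. It had 4052 reads on the 5p arm and 542 on the 3p arm, so the 5p arm held 88.2% (interval 87.2 to 89.1%). miR-7, which acts in photoreceptors and sense organs, had 2541 reads on the 5p arm and 4 on the 3p arm (0.157%, interval 0.0428 to 0.402%). miR-9a, which keeps the number of sense organ precursors in check, had 2335 and 62 reads, with 2.59% on the 3p arm (interval 1.99 to 3.30%). miR-33, which lies in an intron of the SREBP gene and acts in lipid metabolism, had 1516 and 6 reads, with 0.394% on the 3p arm (interval 0.145 to 0.856%). Of these 4, miR-34 therefore had the largest share on its minor arm.

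**Figure D2:**
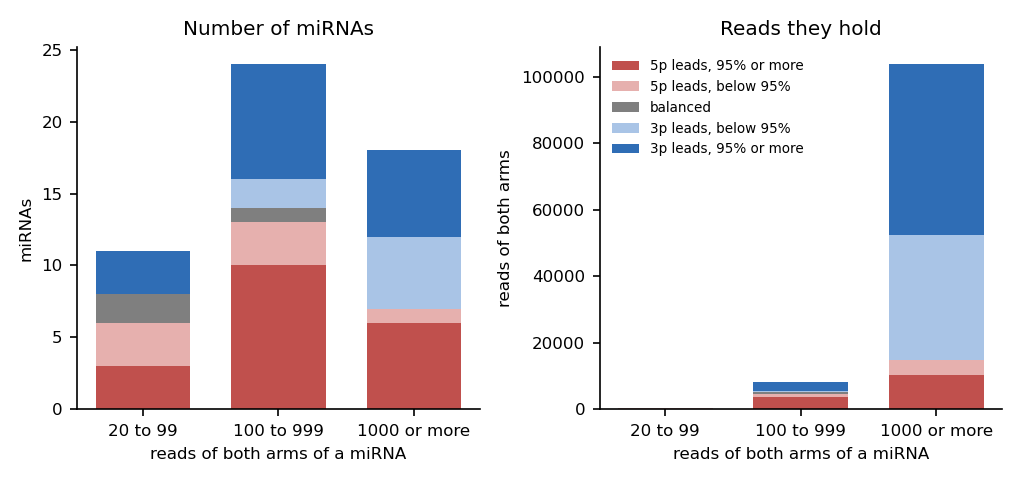
Number of the 53 miRNAs (left) and reads they hold (right) by the total reads of a miRNA, coloured by the leading arm and by whether it holds at least 95% of the reads. The 18 miRNAs with 1000 reads or more hold most reads, mainly on miRNAs led by the 3p arm, and the bar for 20 to 99 reads is too low to be seen on the right.

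In most miRNAs 1 arm held nearly all reads. The median share of the major arm was 97.4%. It was 98.1% in the 28 miRNAs led by the 5p arm and 97.0% in the 25 led by the 3p arm. The major arm held 95% of the reads or more in 36 of the 53 miRNAs (67.9%), of which 19 were led by the 5p and 17 by the 3p arm. Over all 81 miRNAs with reads the same share was 67.9%. In 22 miRNAs the whole interval lay at or above 95%. For the other 14 of the 36 the reads do not show that 95% was reached, since the lower bound was below it.

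The median share of the major arm was 95.2% in the 11 miRNAs with 20 to 99 reads, 97.0% in the 24 with 100 to 999 reads and higher again in the 18 with 1000 reads or more. Single miRNAs followed this order little. Spearman's coefficient of total reads with the major share was 0.0498 across the 53 miRNAs, given as a description, since all values come from 1 library. Of the 18 deepest miRNAs, 7 were led by the 5p arm and 11 by the 3p arm, and 12 were at 95% or more. The 6 deep miRNAs below 95% were miR-8, bantam, miR-14, miR-34, miR-317 and miR-276b, and 5 of these 6 were led by the 3p arm. The place of miR-276b among them is not settled, since its 5p count is also listed for its paralogue miR-276a. In the lowest depth class the 5p arm led in 8 of 11 and in the middle class in 13 of 24.

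The strongest ratio with reads on both arms was that of miR-279, which represses the formation of CO2-sensing neurons. It had 1988 reads on the 3p arm and 1 on the 5p arm, a ratio of 1988 with a counting interval of 356 to 78561. Other ratios above 200 with reads on both arms were those of miR-133 on the 3p side and of miR-7, miR-125, miR-12, miR-306, miR-274, miR-33 and miR-100 on the 5p side. miR-12 had 626 reads on the 5p arm and 2 on the 3p arm. miR-306 had 303 and 1, and miR-274 had 284 and 1. In these 3 the intervals of the 3p share overlapped widely (0.0386 to 1.15%, 0.00833 to 1.82% and 0.00888 to 1.94%), so their order is not settled.

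The other miRNAs at 95% or more included miR-190, with 893 reads on the 5p arm and 9 on the 3p arm, and miR-315, an activator of Wingless signalling, with 191 and 2. miR-219 had 27 reads on the 5p arm and 1 on the 3p arm. On the 3p side, miR-375 had 654 reads on the 3p arm and 34 on the 5p arm, miR-995 had 241 and 6, and miR-970 had 97 and 3. The major arm of these 6 held at least 95.1% of the reads, but for miR-219, miR-375, miR-995 and miR-970 the interval reached below 95%.

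**Figure D3:**
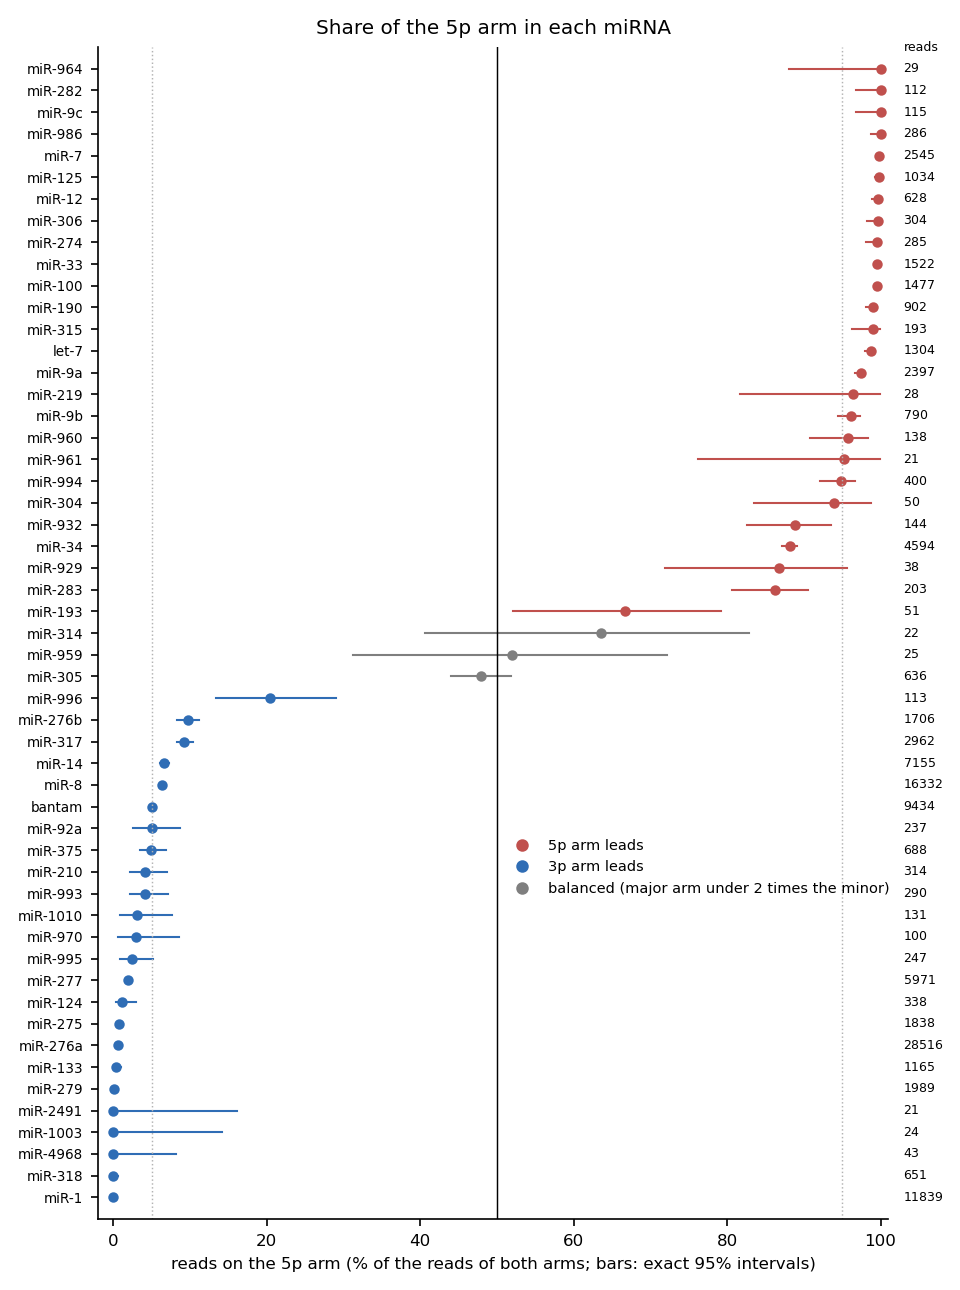
Share of the 5p arm in each of the 53 miRNAs, as points with exact 95% intervals and the total reads at the right; the solid line marks 50% and the dotted lines 5% and 95%. The points crowd at both ends, and only the intervals of miR-305, miR-959 and miR-314 cross 50%.

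In 9 of the 53 miRNAs the minor arm had no reads, 4 of them led by the 5p arm and 5 by the 3p arm. Besides miR-1, these included miR-318, a miRNA of ovarian follicle cells, with 651 reads on the 3p arm, and miR-986, with 286 on the 5p arm. miR-9c had 115 reads and miR-282 had 112, all on the 5p arm. The leading arm was at least 217-fold higher in miR-318, at least 95.3-fold in miR-986, at least 38.3-fold in miR-9c and at least 37.3-fold in miR-282, each taken against 3 reads. The other 4 were miR-4968, miR-964, miR-1003 and miR-2491, with 43, 29, 24 and 21 reads. At such depth the interval of the minor arm reached up to 8.22% in miR-4968, 11.9% in miR-964, 14.2% in miR-1003 and 16.1% in miR-2491. In 10 further miRNAs the minor arm had 1 to 3 reads.

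Some minor arms were abundant in their own right. The 5p arm of miR-8, with 1038 reads, had more reads than the leading arm of 36 of the 53 miRNAs. The 3p arm of miR-34 with 542 reads, the 5p arm of bantam with 478 and the 5p arm of miR-14 with 477 each had more reads than 30 leading arms. The 5p arm of miR-317, with 275 reads beside 2687 on the 3p arm, had more reads than 22 leading arms.

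Only 3 miRNAs had balanced arms, here defined as a major arm under 2 times the minor arm (5.66% of the 53, against 9.88% of all 81 miRNAs with reads). miR-305, known for its role in intestinal stem cells, was the only abundant one. It had 305 reads on the 5p arm and 331 on the 3p arm, so the 5p arm held 48.0% (interval 44.0 to 51.9%) and the ratio of the arms was 1.09 (interval 0.926 to 1.27). Of the 42 miRNAs with 100 reads or more, miR-305 alone was balanced. miR-959, from a cluster of testis miRNAs, had 13 and 12 reads, and miR-314 had 14 and 8. Their 5p shares were 52.0% (interval 31.3 to 72.2%) and 63.6% (interval 40.7 to 82.8%). The counting intervals of their ratios reached up to 2.60 and 4.81, so with these few reads balance is not settled in either.

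Between the balanced miRNAs and those at 95% or more stood 14 miRNAs, 7 led by each arm. miR-193 was closest to balance, with 34 reads on the 5p arm and 17 on the 3p arm. This is a ratio of exactly 2, just outside the definition, and its 5p share of 66.7% had an interval (52.1 to 79.2%) that did not reach 50%. miR-996 had 23 reads on the 5p arm and 90 on the 3p arm, or 20.4% on the 5p arm (interval 13.4 to 29.0%). On the 5p-led side, miR-283 stood at 86.2%, miR-929 at 86.8%, miR-932 at 88.9% and miR-304 at 94.0% on the 5p arm. The interval of each of these 4 overlapped that of miR-34. The remaining miRNAs of this class lay close to 95%, among them miR-994 with 94.8% on the 5p arm and miR-92a with 94.9% on the 3p arm, or have been given above.

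For miR-276a and its paralogue miR-276b, the arms could not be fully separated. Both 5p arms carry 166 reads in the deposited table, while the 3p arms carry 28350 and 1540. Among arms of 20 reads or more with equal counts, the others had 34 reads (the 5p arms of miR-193 and miR-375) and 21 reads (the 3p arms of miR-994 and miR-2491). If the reads are the same ones listed under both names, the 5p shares of miR-276a, at 0.582%, and of miR-276b, at 9.73%, are upper limits. With the 5p count taken once, both miRNAs together had 166 reads on the 5p side and 29890 on the 3p side, or 0.552% on the 5p side (interval 0.472 to 0.643%). Either way the 3p arm led in both.

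With loci joined when at most 10000 bp apart on the same strand, 22 of the 53 fell into 8 clusters. In 6 clusters, with 17 miRNAs, all members were led by the same arm, and in 2 clusters both sides occurred. In 2 of the 6, however, miR-305 and miR-959 were balanced, so that their side is not settled. In the other 4 clusters, with 11 miRNAs, no interval reached 50%. Several of these clusters hold related miRNAs, so their members are not independent of each other. Positions are those of the transcript table of the series, and chromosome, start and end equalled those of RefSeq Release 6 for all 53.

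The let-7 complex, which times development, was led by the 5p arm throughout. let-7 had 1288 reads on the 5p arm and 16 on the 3p arm, miR-100 had 1471 and 6, and miR-125, the fly lin-4 homologue, had 1032 and 2. The 5p share ranged from 98.8% to 99.8%. The 3p share of let-7, 1.23% (interval 0.703 to 1.98%), lay above that of miR-125 at 0.193% (interval 0.0234 to 0.697%), with intervals that did not overlap. The complex lies on chromosome arm 2L, from 18471434 to 18472424. The same side led in miR-12, miR-283 and miR-304 on the X chromosome (15507956 to 15509546), with 5p shares from 86.2% to 99.7%.

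The list of the miR-9 family held 6 miRNAs, with miR-306 added as a genomic neighbour. Of these, miR-9a, miR-9b, miR-9c and miR-306 had 20 reads or more, and all 4 were led by the 5p arm at 96.1% or more. miR-9b had 759 reads on the 5p arm and 31 on the 3p arm. miR-9c and miR-306, its neighbours within 911 bp, had 115 and 303 reads on the 5p arm and 0 and 1 on the 3p arm. miR-79, named for its relation to this family, lies between miR-306 and miR-9b and stayed below the limit with 4 reads on each arm. miR-4, on the minus strand, is listed with no reads.

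miR-34, miR-277 and miR-317 differed in side, although they lie within 9909 bp of chromosome arm 3R (10091126 to 10101034) on the same strand. miR-34 was led by the 5p arm, and miR-277 and miR-317 by the 3p arm. miR-317 had 9.28% on the 5p arm (interval 8.26 to 10.4%). The other mixed cluster, also on 3R (10408137 to 10408369), held miR-994 and miR-318 within 233 bp. miR-994 had 379 reads on the 5p arm and 21 on the 3p arm, whereas all 651 reads of miR-318 were on the 3p arm. Their hairpins are shown because the leading side differs, with capitals as above.
miR-994: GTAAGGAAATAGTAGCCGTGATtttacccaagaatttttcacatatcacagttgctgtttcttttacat
miR-318: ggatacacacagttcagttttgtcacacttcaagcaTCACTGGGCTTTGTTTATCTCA

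**Figure D4:**
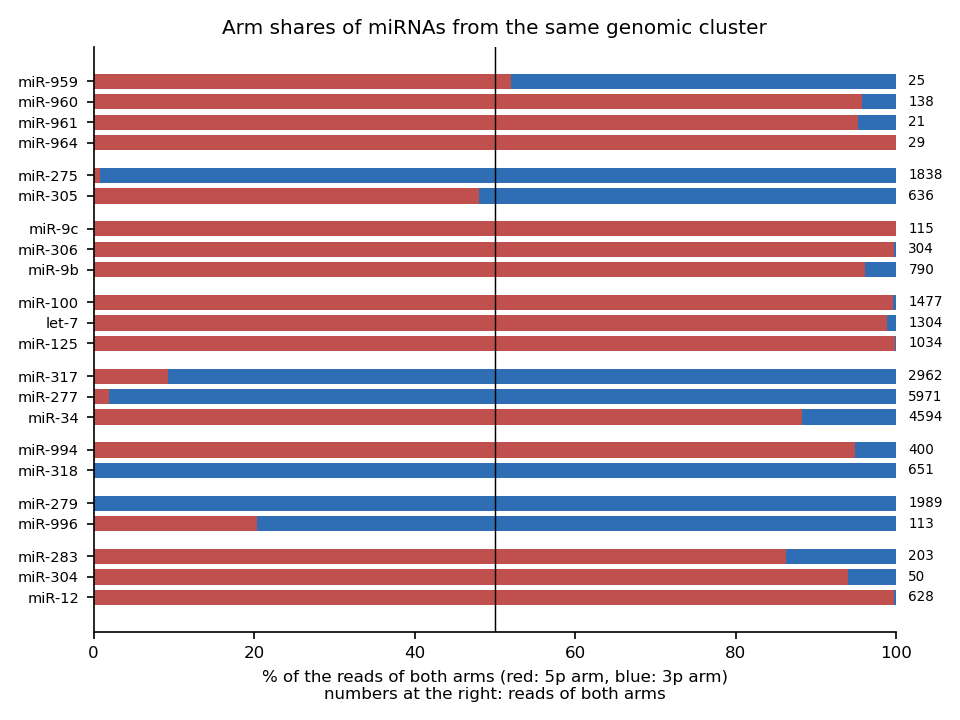
Arm shares in the 22 miRNAs from 8 genomic clusters, one bar per miRNA with the reads of both arms at the right, red for the 5p and blue for the 3p arm. Both colours lead in the clusters of miR-34 and of miR-994, and miR-305 and miR-959 are split near the middle.

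Neighbours could also differ in how one-sided they were. miR-275, known from egg production in mosquitoes, had 1823 reads on the 3p arm and 15 on the 5p arm, or 0.816% on the 5p arm (interval 0.457 to 1.34%). miR-305, within the same 250 bp of 2L, was balanced. miR-279 and miR-996, which share a seed and lie 1696 bp end to end, were both led by the 3p arm. The 5p share of miR-996 was 20.4% and that of miR-279 was 0.0503% (interval 0.00127 to 0.280%), with intervals far apart.

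Of the 9 lists by tissue, role, family or cluster with at least 2 members, 6 had all members led by the same side and 3 had both sides. For comparison, the 5p arm led in 28 and the 3p arm in 25 of all 53 miRNAs. Among the 6 lists, those of muscle and of mirtrons had only 2 members each. The testis list includes the balanced miR-959, whose side is not settled. The single side of some lists is that of neighbours in 1 cluster. The nervous system, growth and ageing lists held both sides. Of 12 miRNAs listed for the nervous system and sense organs, 9 had 20 reads or more, of which 3 were led by the 5p arm (miR-7, miR-190 and miR-219) and 6 by the 3p arm. In the latter were miR-124, the neuronal miRNA, with 334 reads on the 3p arm and 4 on the 5p arm, and miR-210, of photoreceptors, with 301 and 13. Of 8 listed for growth and metabolism, 7 passed, and only miR-33 was led by the 5p arm. Both muscle miRNAs were led by the 3p arm, as was the single member of the ovary list (miR-318, of 2 listed), of the Hox clusters (miR-993, of 4 listed) and of the miR-92 and miR-310 family (miR-92a, of 6 listed). miR-993 had 278 reads on the 3p arm and 12 on the 5p arm, and miR-92a had 225 and 12. Many listed miRNAs that did not pass lie on the minus strand and had no reads. They are miR-989 (ovary), miR-10 and miR-iab-8 (Hox clusters), miR-310 to miR-313, and miR-263b and miR-137 (nervous system). miR-92b, miR-iab-4 and miR-278, with 2, 5 and 0 reads, lie on the plus strand.

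None of the 4 K-box miRNAs listed with both arms under 1 name reached 20 reads, and 1 of them, miR-13a, had any, 5 reads on the 3p arm. All 4 lie on the minus strand. miR-13b could not enter because its 2 precursors have separate 5p names and a shared 3p arm. That arm had 1979 reads, against 10 on miR-13b-2-5p and 0 on miR-13b-1-5p. Mirtrons are spliced introns that bypass Drosha. Of 15 listed, 9 have both arms in the table and could be compared, and 5 of these 9 are on the minus strand. The 2 that passed were both led by the 3p arm. miR-1010 had 127 reads on the 3p arm and 4 on the 5p arm, and miR-1003 had 24 and 0.

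All 14 miRNAs listed for the testis clusters had reads, but only 4 passed the limit. All 4 belong to the cluster on 2L (5640940 to 5642201) and were led by the 5p arm, miR-959 by a single read. miR-960 had 132 reads on the 5p arm and 6 on the 3p arm, miR-964 had 29 and 0, and miR-961 had 20 and 1. Just outside the limit stood miR-978 with 16 reads on the 3p arm, miR-962 with 14 on the 5p arm and miR-976 with 13 on the 3p arm. Just inside it were miR-314 with 22 reads and miR-2491 and miR-961 with 21 each.

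The 28 miRNAs with 1 to 19 reads said little about their arms. The 5p arm led in 12, the 3p arm in 12 and neither in 4. In 23 of the 28, the interval of the 5p share included 50%.

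Of the 51 members on the plus strand, 28 were led by the 5p and 23 by the 3p arm. Both members of the minus strand, miR-4968 and miR-2491, were led by the 3p arm and had no 5p reads. Whether strand has a part in the arm shares was not tested.

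By chromosome arm, the 5p arm led in 11 of 17 miRNAs on 2L and in 9 of 13 on 3L. Of the 11 on 2L, 10 belong to 3 clusters, so they are not independent. On 3R, 3 of 13 were led by the 5p arm, on X 3 of 6 and on 2R 2 of 4. Differences between chromosome arms were not tested.

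In base composition, the leading side of the hairpin was more often higher than lower in T, which was not tested. The 3 outermost bases at each end were left out, among them the G that starts every substrate. The first base of the arms was not compared. Hairpins could be joined for 42 of the 53 miRNAs, and 39 of these were not balanced. Over bases 4 to 22 from each end, the leading side had more T than the other side in 19 of the 39, less in 11 and as much in 9. The median share of T was 31.6% on the leading and 26.3% on the other side. For G and C together, the leading side was higher in 15 and lower in 18, and for purines it was higher in 15 and lower in 17. With the window ending at base 20, T was higher on the leading side in 20 and lower in 12, but the medians of both sides were equal at 29.4%. With the window ending at base 18, T was higher in 19 and lower in 14. Because the 2 sides of a stem pair with each other, their compositions are not independent.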

How the data were processed

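One small RNA library of adult fruitflies was used. The authors ligated adaptors to the 3′ and 5′ ends of the RNA, sequenced single ends, and used Cutadapt to clip adaptors, trimmomatic for trimming and miRDeep2 for alignment to miRBase. The submitters' processing notes, read for both libraries together, also name CASAVA and HISAT2. The study's methods name neither for the small RNA. The sources used here do not give the miRBase release or how reads matching several sequences were assigned. The deposited counts are whole reads per mature sequence, without normalization. The deposited RPM values are the authors' scaling of the counts to a library total, which came out at 142282 reads here. A single read is worth 7.03 RPM and 3 reads are worth 21.1 RPM. RPM served only as an alternative. Of the 480 sequences, 14 carry a number in place of a miRBase name. Their labels mark them as new, with a mature and a star sequence for each number. Of the second library's table, only positions were read, and its expression columns were not used.

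The 2 arms of a miRNA were counted in the same library, so depth cancels in their ratio. Bias from adaptor ligation or RNA length does not cancel, and it was not measured. Reads are not independent molecules, as no molecular identifiers were used. Exact intervals were computed with scipy 1.17.1 in Python 3.11. Simulated counts checked the computation only, since they were drawn as independent reads. A fold against an arm without reads was taken against 3 reads. An arm was called one-sided at 95% of the reads and arms balanced when the major arm was under 2 times the minor arm. No test across samples was possible. The miRNAs named are the 10 with the most reads, the 5 with the most led by each arm, all balanced ones, those with a minor arm at 0, those nearest the limit of 20 reads and those on the lists by tissue, family or cluster. Others, such as miR-193 and miR-996 between the classes, were named after their values had been seen. The members and lists were chosen with earlier results of these data known. Hairpins were joined where the primers of the study overlapped by at least 10 bases (118 of 120). Of these, a few named miRNAs were printed, none from chromosome arm 2R.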

Additional observations from a re-analysis of the deposited data

Results flagged for a closer look

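Reads also lay on sequences that the comparison of arms could not use. The sequences listed with a number in place of a miRBase name held 24591 reads, and 4 of the 7 numbers had 20 reads or more over their mature and star sequences. Number 1 had 19864 reads, 19154 on the mature and 710 on the star sequence (3.57% star, 95% exact interval 3.32 to 3.84%). Number 6 had 4632 reads, all on the mature sequence. Number 3 had 66 reads and number 2 had 22, each with 1 read on the star sequence. These numbers do not say which arm is the 5p one, and no sequence or position was given for them in the sources used here.

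Of the names with only 1 arm listed, 2 had 20 reads or more. miR-13b-3p had 1979 reads and miR-289-5p had 198. There are no control samples, and these sequences were listed only because they had 20 reads or more.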

How the results depend on the processing

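Of 36 values recomputed under alternatives, 28 stayed close to those given, where even a change from 28 to 20 miRNAs passed as close. Some of the values could not change. RPM scales both arms alike, and leaving out miR-276a and miR-276b cannot alter the number led by the 5p arm. The tally is therefore no measure of how stable the results are. The numbers led by the 5p and the 3p arm went from 28 and 25 to 22 and 22 with at least 50 reads and to 20 and 22 with at least 100 reads, so which side led more miRNAs depends on the limit. Balanced miRNAs fell from 3 to 1 under either limit, since miR-959 and miR-314 have few reads. One-sided miRNAs were 21 with a limit of 99% and 22 by the lower bound of the interval. The share of reads on the 3p side was 74.0% without miR-276a, 49.3% without the 5 most abundant miRNAs and 48.4% with each miRNA counted once, so the last 2 settings took it below 50%. Minor arms with fewer than 3 reads numbered 17, against 9 with none. Adding miR-13b, whose precursors share an arm, gave 26 miRNAs led by the 3p arm. Chosen after seeing the data were the windows of base composition and 2 further settings, without miR-276a and miR-276b, which left 28 and 23, and the plus strand alone, which also left 28 and 23. The split after the 6 most abundant miRNAs was not planned either. The first base of the arms, the pairing of their 5′ ends and the removal of near-identical arms were planned but not run, because no table of mature sequences was at hand. A minor arm is limited by depth, since the interval of an arm without reads reaches 0.0312% in miR-1 and 16.1% in miR-2491. No paired analysis was possible because there is 1 library of each kind.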
